A study of Mus musculus with 24 samples.

Results

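The genes of the 5 NF-kB subunits, Nfkb1, Nfkb2, Rel, Rela and Relb, and of 5 inhibitors of the pathway, Nfkbia, Nfkbib, Nfkbie, Nfkbiz and Tnfaip3, were followed through 24 RNA-seq libraries of mouse bone marrow-derived macrophages (BMDMs). They were picked by symbol, as the entries with these 10 names in the expression values of every library. They are 10 of the 18063 genes listed for M1 and of the 17786 genes listed for M2 libraries, with 17109 genes listed for both. The study asked what dopamine (DA) does to macrophages through its receptor DRD5. Wild-type (WT) and DRD5-/- BMDMs, all from C57BL/6 mice of 10 weeks, were polarized for 12 h. M1 cells received 100 ng/ml LPS with 50 ng/ml IFN-γ, and M2 cells received IL-4 and IL-13 at 10 ng/ml each. Under each stimulus both genotypes were taken without and with DA, which gives 8 groups of 3 libraries. The labels give DA without a dose, and the legends of the paper give 20 µM. The labels do not say how the DRD5 allele was made, and they name bone as the tissue while their growth note speaks of colons. Nothing says whether a replicate number stands for a mouse, a culture or a repeated library, so the p-values below measure the spread between these libraries, which may be technical in part. The values are FPKM, fragments scaled to the length of the transcript and to the mapped fragments of the library, as the authors deposited them. They come without read counts, so the depth behind a value is unknown. Between 9774 and 9879 genes had an FPKM of 1 or more in an M1 library, and between 10349 and 10444 in an M2 library.

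NF-kB is a family of dimeric transcription factors that in resting cells are held in the cytoplasm by IκB proteins. LPS acts through a Toll-like receptor on the IKK complex, which marks the IκB proteins for degradation, so that the dimers enter the nucleus and turn on cytokine, chemokine and survival genes of the inflammatory macrophage. The genes of several inhibitors, Nfkbia and Tnfaip3 among them, are NF-kB targets themselves, which gives the pathway a negative feedback.

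The genotype could not be checked from the RNA. Drd5 (gene 13492, chr5:38319367-38322518, plus strand, GRCm38) is not among the genes listed for M1, and in M2 it stood at 0 in 10 of 12 libraries. The other 2 M2 values were 0.06 FPKM in WT replicate 2 and 0.03 FPKM in DA-treated WT replicate 2. Other dopamine receptors were near 0 too, with 0.25 FPKM for Drd1 in an untreated M2 WT library as the highest value of any of them. The labels of cell type and M1 stimulus were borne out by marker genes. All 9 macrophage markers had a mean of 1 FPKM or more in each of the 8 groups, with Lyz2 the most abundant. The 7 markers of M1 polarization, among them Nos2, summed to 5038.5, 4963 and 5040.4 FPKM in untreated M1 WT and to 15.8, 16.6 and 14.4 FPKM in untreated M2 WT libraries. The 9 macrophage markers summed to a mean of 11089 FPKM in untreated M2 WT and 8676 FPKM in DA-treated M2 WT cells, and to 7821 and 8486 FPKM in the same M1 groups. Much of these sums was Lyz2, with means of 6799 and 4753 FPKM in the M2 groups and 4847 and 5350 FPKM in the M1 groups. Markers of other cells were low except for neutrophils in M1 and fibroblasts in M2. The 6 neutrophil markers, with S100a8 the most abundant and Elane at 0 in every M1 library, summed to 35.2, 43.7 and 45 FPKM in untreated M1 WT, 68.2, 56.3 and 55.9 FPKM in DA-treated M1 WT, 14.5, 18.2 and 15.7 FPKM in untreated M1 DRD5-/- and 18.7, 17.3 and 19.9 FPKM in DA-treated M1 DRD5-/- libraries. The 4 fibroblast markers, with Col1a1 the most abundant, summed to 32.4, 32.1 and 31.2 FPKM in untreated M2 WT, 36.6, 34.7 and 33.0 FPKM in DA-treated M2 WT, 23.2, 21.8 and 22.5 FPKM in untreated M2 DRD5-/- and 21.8, 23.2 and 23.4 FPKM in DA-treated M2 DRD5-/- libraries. The mean summed FPKM of T cell, B cell and mast cell markers stayed under 1 in each group. The 4 dendritic cell markers, with Xcr1 the most abundant in M1, summed to 3, 2.56 and 2.32 FPKM in untreated M1 WT, 2.05, 1.72 and 1.78 FPKM in DA-treated M1 WT, 2.82, 2.05 and 2.33 FPKM in untreated M1 DRD5-/- and 2.64, 2.67 and 2.14 FPKM in DA-treated M1 DRD5-/- libraries, and to a mean under 1 in M2. These markers move with genotype or DA in some groups, and their part in the results below was not tested. In a bulk sample, fewer cells of a type and less RNA per cell cannot be told apart.

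The 10 genes lie on 8 chromosomes, and all are annotated as protein coding. In the GRCm38 annotation of GENCODE, Nfkb1 (gene 18033) spans chr3:135584655-135691547 on the minus strand, Nfkb2 (gene 18034) chr19:46304320-46312385 on the plus strand, Rel (gene 19696) chr11:23736847-23770970 on the minus strand, Rela (gene 19697) chr19:5637483-5648130 on the plus strand and Relb (gene 19698) chr7:19606217-19629438 on the minus strand. Among the inhibitors, Nfkbia (gene 18035) spans chr12:55489410-55492647 on the minus strand, Nfkbib (gene 18036) chr7:28758251-28767512 on the minus strand, Nfkbie (gene 18037) chr17:45555703-45563169 on the plus strand, Nfkbiz (gene 80859) chr16:55811375-55838899 on the minus strand and Tnfaip3 (gene 21929) chr10:19000910-19015657 on the minus strand. Some share exonic bases with a gene on the other strand, and the strand used in counting is not stated. Nfkbib shares 42 of its 2169 exonic bases with Sirt2 and 314 with Ccer2, which was at or near 0 FPKM. Nfkb2 shares 531 of its 4584 exonic bases with AC114539.1, a long noncoding RNA gene listed for neither stimulus, and 299 with Psd. Psd had 1.49, 1.57 and 1.44 FPKM in untreated and 0.650, 0.790 and 0.880 FPKM in DA-treated M1 WT libraries, and 1.43, 1.5 and 1.53 and 0.830, 0.800 and 0.800 FPKM in M2 WT. It was lower in each treated library, and its part in the Nfkb2 values below was not tested.

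RefSeq promoter windows of 300 bases, from 250 before to 50 after a start site on GRCm38.p6, were at hand for 7 of the 10 genes: Nfkb2, Rel, Rela, Nfkbia, Nfkbib, Nfkbie and Tnfaip3. Nfkb1, Relb and Nfkbiz are named only. Each window was searched on both strands for the NF-kB binding motif, the κB consensus, a degenerate motif of 10 bases that 8.46% of 32851 windows of this length hold and that 9.55% of 27025 genes hold in at least 1 window. The windows of 5 of the 7 genes held a match, and those of Rela and Nfkbib did not. The matches are shown because several of these genes are known as targets of the factor they form or hold back. Each is given 5′ to 3′ on the strand of its gene, in 30 bases, with the matching bases in capitals. In Nfkb2 they start 39 and 11 bases before a start site, at chr19:46304698-46304708 and chr19:46304726-46304735 in an exon of the annotation, and 236 bases before and 11 bases after another, at chr19:46305459-46305468 in an intron and chr19:46305705-46305714 in an exon. In Rel the match starts 92 bases before the start site, at chr11:23771051-23771061. In Nfkbia it starts 29 bases before, at chr12:55492667-55492676, and in Nfkbie 106 bases before, at chr17:45555594-45555603. In Tnfaip3 they start 125 and 12 bases before, at chr10:19015526-19015535 and chr10:19015413-19015422, both in an intron, and another window of this gene held no match. The capitals of the first Nfkb2 site and of the Rel site cover 2 overlapping matches, with both strands among them, and the Tnfaip3 match 125 bases before reads as one on both strands. A match is a description of the letters and not of binding.
Nfkb2, 39 bases before: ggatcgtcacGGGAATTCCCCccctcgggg
Nfkb2, 11 bases before: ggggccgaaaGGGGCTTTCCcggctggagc
Nfkb2, 236 bases before: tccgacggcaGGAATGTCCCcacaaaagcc
Nfkb2, 11 bases after: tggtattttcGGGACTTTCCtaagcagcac
Rel: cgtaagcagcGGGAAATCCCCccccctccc
Nfkbia: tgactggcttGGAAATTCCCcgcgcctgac
Nfkbie: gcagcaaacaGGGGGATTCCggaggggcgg
Tnfaip3, 125 bases before: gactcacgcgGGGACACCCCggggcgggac
Tnfaip3, 12 bases before: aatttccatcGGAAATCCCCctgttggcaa

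Whole windows are shown for Nfkbib, the member that changed with DA in WT under both stimuli, and for Nfkbia, the main inhibitor, to set a window without a κB match beside one with it. The Nfkbia window is chr12:55492598-55492897 on the minus strand and the Nfkbib window chr7:28766595-28766894 on the minus strand, both on GRCm38.p6 from RefSeq, 5′ to 3′, with the κB match in capitals. The cAMP response element TGACGTCA, held by 1.79% of all windows on either strand, was in none of the members' windows. The GC box GGGCGG, held by 35.7% of all windows, was absent from the Nfkbib window and matched at 1 position in that of Nfkbia.
Nfkbia promoter: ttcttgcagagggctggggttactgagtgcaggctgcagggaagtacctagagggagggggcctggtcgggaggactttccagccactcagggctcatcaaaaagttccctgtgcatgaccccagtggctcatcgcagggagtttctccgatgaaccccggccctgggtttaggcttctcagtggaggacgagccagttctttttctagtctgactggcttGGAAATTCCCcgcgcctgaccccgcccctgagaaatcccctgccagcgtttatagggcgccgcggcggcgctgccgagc
Nfkbib promoter: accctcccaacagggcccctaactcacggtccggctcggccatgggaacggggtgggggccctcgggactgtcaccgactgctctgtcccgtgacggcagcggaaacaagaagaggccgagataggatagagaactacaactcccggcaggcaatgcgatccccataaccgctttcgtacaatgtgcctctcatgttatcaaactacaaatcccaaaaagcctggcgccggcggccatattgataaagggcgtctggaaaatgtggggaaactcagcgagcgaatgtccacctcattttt

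**Figure D1:**
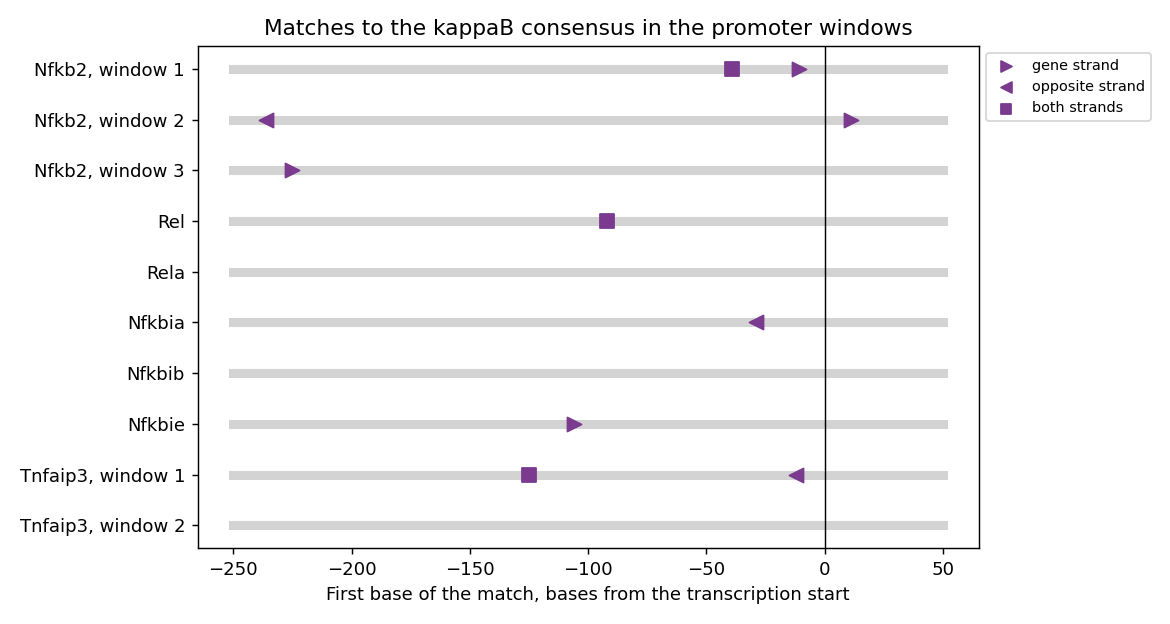
Position of each κB consensus match in the promoter windows of the members, as the distance in bases of its start from the start site, with grey bars for the windows from 250 bases before to 50 after. Triangles point along the strand of the match and a square stands for matches on both strands. The windows of Rela and Nfkbib and window 2 of Tnfaip3 are empty.

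In untreated WT cells the subunits ranged from Rela down to Rel under both stimuli. Rela, which carries the main transactivation domain of the classical dimer, had 64.9, 64.8 and 62.8 FPKM in M1 and 57.2, 62.1 and 55.8 FPKM in M2. Nfkb1, which encodes the precursor of the p50 subunit, had 40.0, 40.5 and 40.1 FPKM in M1 and 39.8, 39.7 and 39.7 FPKM in M2. Nfkb2, the precursor gene of the noncanonical pathway, had 43.0, 44.3 and 43.2 FPKM in M1 and 19.2, 18.9 and 19.5 FPKM in M2. M1 libraries were above all M2 libraries for Rela and Nfkb2, and also for Nfkb1, where the gap was within 1 FPKM. Relb, the noncanonical partner of Nfkb2, had 22.9, 21.9 and 22.6 FPKM in M1 and 11.4, 10.5 and 9.60 FPKM in M2. Rel, a subunit prominent in lymphocytes and in induction of Il12b, had 6.97, 7.67 and 7.39 FPKM in M1 and 9.19, 9.27 and 8.78 FPKM in M2. Every M1 library was above every M2 library for Relb and below for Rel.

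The inhibitors were further apart. Nfkbia, which encodes IκBα and is resynthesized after NF-kB activation, had 252, 249.8 and 235 FPKM in untreated M1 WT and 31.3, 30.7 and 30.7 FPKM in untreated M2 WT libraries. Nfkbib, which encodes the more slowly degraded IκBβ, had 77.3, 79.3 and 73.9 FPKM in M1 and 34.3, 33.0 and 32.3 FPKM in M2. Nfkbie, the IκBε gene, had 53.5, 55.3 and 53.4 FPKM in M1 and 6.34, 6.59 and 6.00 FPKM in M2. For all of them each M1 library was above each M2 library. Nfkbiz, which encodes a nuclear IκB that helps to switch on secondary response genes, had 17.2, 16.9 and 17.7 FPKM in M1 and 2.61, 2.60 and 2.53 FPKM in M2. Tnfaip3, which encodes the ubiquitin-editing enzyme A20 that ends signalling to IKK, had 83.2, 84.4 and 85.8 FPKM in M1 and 7.67, 7.70 and 8.01 FPKM in M2. These too were higher in every M1 library.

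**Figure D2:**
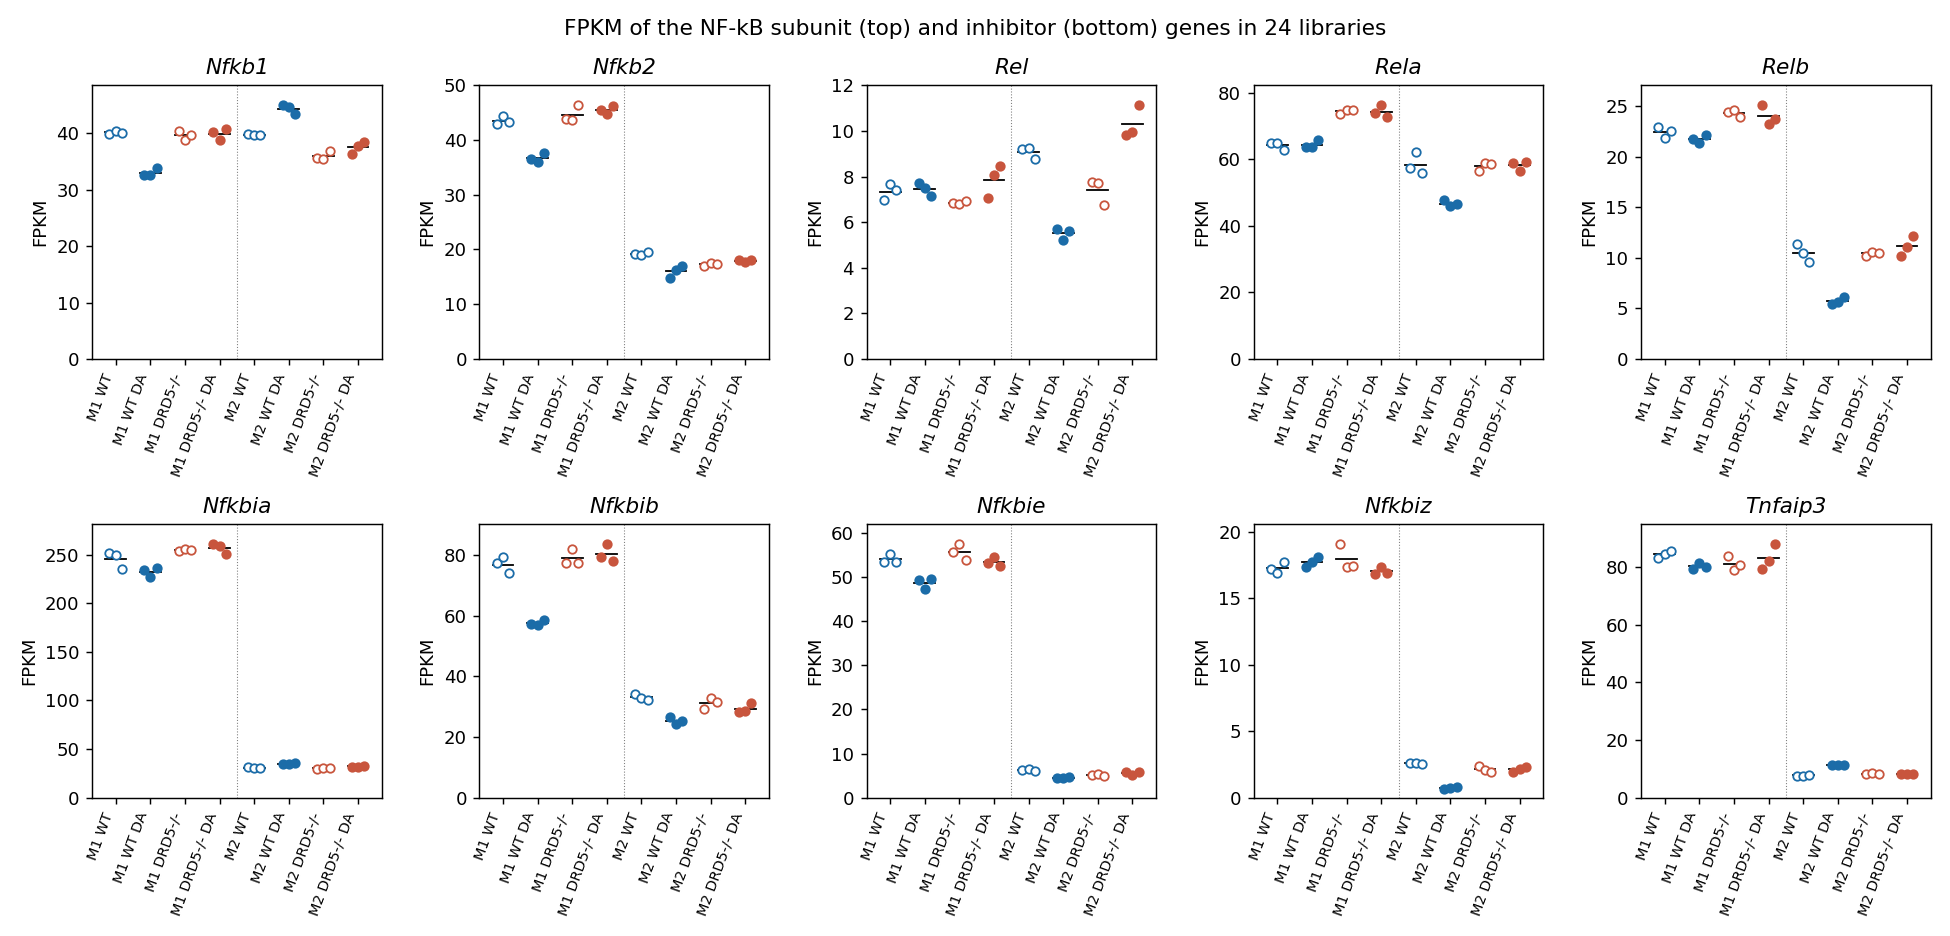
FPKM of the 10 genes in the 24 libraries, with a point for each library, a line at the group mean, open points for untreated and filled points for DA-treated cells, and blue for WT and red for DRD5-/-. Nfkbia is the most abundant in M1, with 235 to 252 FPKM in untreated WT, and Nfkbiz the least abundant in M2, with 0.67 to 0.78 FPKM in DA-treated WT.

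Differences were tested with limma on log2(FPKM + 1) for all genes with an FPKM of 1 or more in at least 3 libraries, with Benjamini-Hochberg adjustment over all of them. To pass the threshold a gene needed an adjusted p below 0.001 together with a 1.2-fold change or more on this scale. Here the change of a gene with few FPKM is understated, so ratios of mean FPKM are given as well. In the comparison of M1 with M2, the M1 and M2 libraries were deposited with different gene lists, so the stimulus and the set of files cannot be told apart. The size factors of the median-of-ratios scaling differed between M1 and M2 by −0.45 log2 units in untreated WT and by −0.42 in untreated DRD5-/- libraries. The scaling takes this shift out, which moves each difference up, and the members are read against it. In untreated WT cells 7 members were higher and 1 was lower in M1 than in M2, where 77.5% of 11148 tested genes passed, 22.6% higher and 54.9% lower. The largest differences were those of Tnfaip3 (ratio of mean FPKM 10.8, log2 difference 3.28, SE 0.03, limma adjusted p = 4.44e-28), Nfkbia (ratio 7.94, log2 difference 2.95, SE 0.03, limma adjusted p = 7.62e-29) and Nfkbie (ratio 8.57, log2 difference 2.91, SE 0.04, limma adjusted p = 2.46e-25). Nfkbiz followed at a ratio of 6.7, Nfkbib at 2.32, Nfkb2 at 2.26 and Relb at 2.15. The median log2 difference of the members was 1.163, against −0.387 for all tested genes. Rel was the lower gene (log2 difference −0.27, SE 0.06, limma adjusted p = 0.000189), with all 3 M1 libraries under the M2 libraries, but with the scaling its difference turned to 0.13 (limma adjusted p = 0.0484). Over all alternatives the value of Rel ran from −0.30 to 0.13. Without M1 WT replicate 1, M2 WT replicate 1 or M2 WT replicate 2 it was −0.24, −0.27 and −0.26, and its limma adjusted p, from 0.00108 to 0.00198, was no longer under 0.001. Nfkb1 (0.02) and Rela (0.14) were not past the threshold, and with the scaling both were, at 0.45 and 0.58. In the main values 2525 of all tested genes were higher and 6118 lower (29.2% of those called higher), and with the scaling 4088 were higher and 4038 lower (50.3%).

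In untreated DRD5-/- cells 8 members were higher in M1 and none was lower, where 77.2% of the tested genes passed, 23.4% higher and 53.8% lower. The members' median log2 difference was 1.319, against −0.368 for all tested genes. Nfkbie had a ratio of 10.9, Tnfaip3 of 9.68, Nfkbia of 8.43 and Nfkbiz of 8.43. Rela, which was not past the threshold in WT, was so here (log2 difference 0.36, SE 0.03, limma adjusted p = 4.99e-10), with each M1 library above each M2 library, and at 0.77 with the scaling. Whether the differences between stimuli differ with genotype was not tested. Rel was not past the threshold (log2 difference −0.10, SE 0.06, limma adjusted p = 0.125). With the scaling it passed in the higher direction, at 0.27 (limma adjusted p = 0.000217), and its value over all alternatives ran from −0.16 to 0.27. Nfkb1, at 0.14, passed with the scaling at 0.54. Of all tested genes 2614 were higher and 5996 lower (30.4% of those called higher), and with the scaling 4067 were higher and 4089 lower (49.9%).

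**Figure D3:**
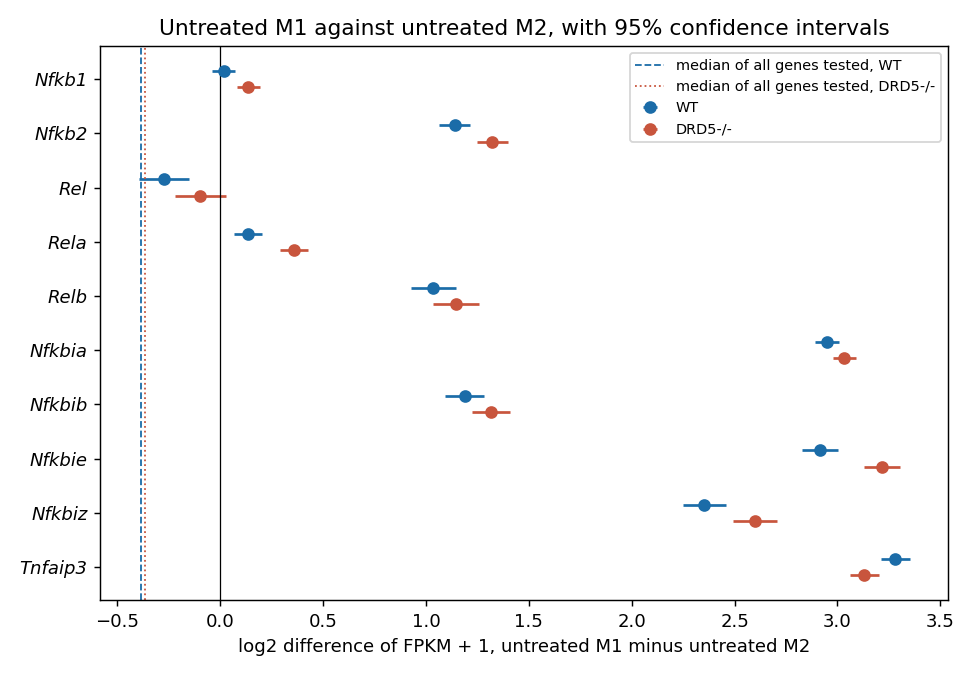
Log2 difference between M1 and M2 for each member in untreated WT and untreated DRD5-/- cells, with 95% confidence intervals and lines at the median of all tested genes (−0.387 and −0.368). Nfkbia, Nfkbie, Nfkbiz and Tnfaip3 lie above 2 log2 units in both genotypes, and Rel lies below 0 in both but above 0 with the median-of-ratios scaling.

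The comparison of DA-treated with untreated M1 WT cells asked which members DA changed in cells given LPS and IFN-γ. Nfkb1 had 40.0, 40.5 and 40.1 FPKM in untreated and 32.6, 32.7 and 33.8 FPKM in DA-treated libraries. Nfkbib had 77.3, 79.3 and 73.9 FPKM in untreated and 57.1, 57.0 and 58.5 FPKM in DA-treated libraries. For both genes the 3 treated libraries lay below the 3 untreated. Nfkb1 fell by 0.28 log2 units (ratio 0.821, SE 0.03, limma adjusted p = 4.13e-06) and Nfkbib by 0.41 (ratio 0.749, SE 0.04, limma adjusted p = 3.19e-07). They were the 2 members past the threshold, both lower, and none was higher, where 14.3% of 10040 tested genes passed, 4.73% higher and 9.6% lower. Nfkb2 had 43.0, 44.3 and 43.2 FPKM in untreated and 36.4, 35.9 and 37.6 FPKM in DA-treated libraries, which do not overlap. Its change of −0.24 (SE 0.03, limma adjusted p = 2.44e-05) was short of 1.2-fold. Nfkbie was also lower in each treated library, with 53.5, 55.3 and 53.4 against 49.4, 47.3 and 49.6 FPKM, at a change of −0.15 and a limma adjusted p of 0.0018. Psd, which shares exonic bases with Nfkb2, fell by 0.50 (limma adjusted p = 5.7e-05). Rel, Rela, Relb and Nfkbiz overlapped between the groups, with log2 changes between −0.04 and 0.04. Nfkbia (−0.08) and Tnfaip3 (−0.07) were not past the threshold either, though Tnfaip3 was lower in each treated library. The members' median change was −0.075, against −0.067 for all tested genes. With the median-of-ratios scaling Nfkb1 changed by −0.20 (limma adjusted p = 6.51e-05; 4.13e-06 to 6.51e-05 over all alternatives), short of 1.2-fold, which leaves Nfkbib. Of all tested genes 475 rose and 964 fell (33% of those called higher), and with the scaling 677 rose and 539 fell (55.7%).

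**Figure D4:**
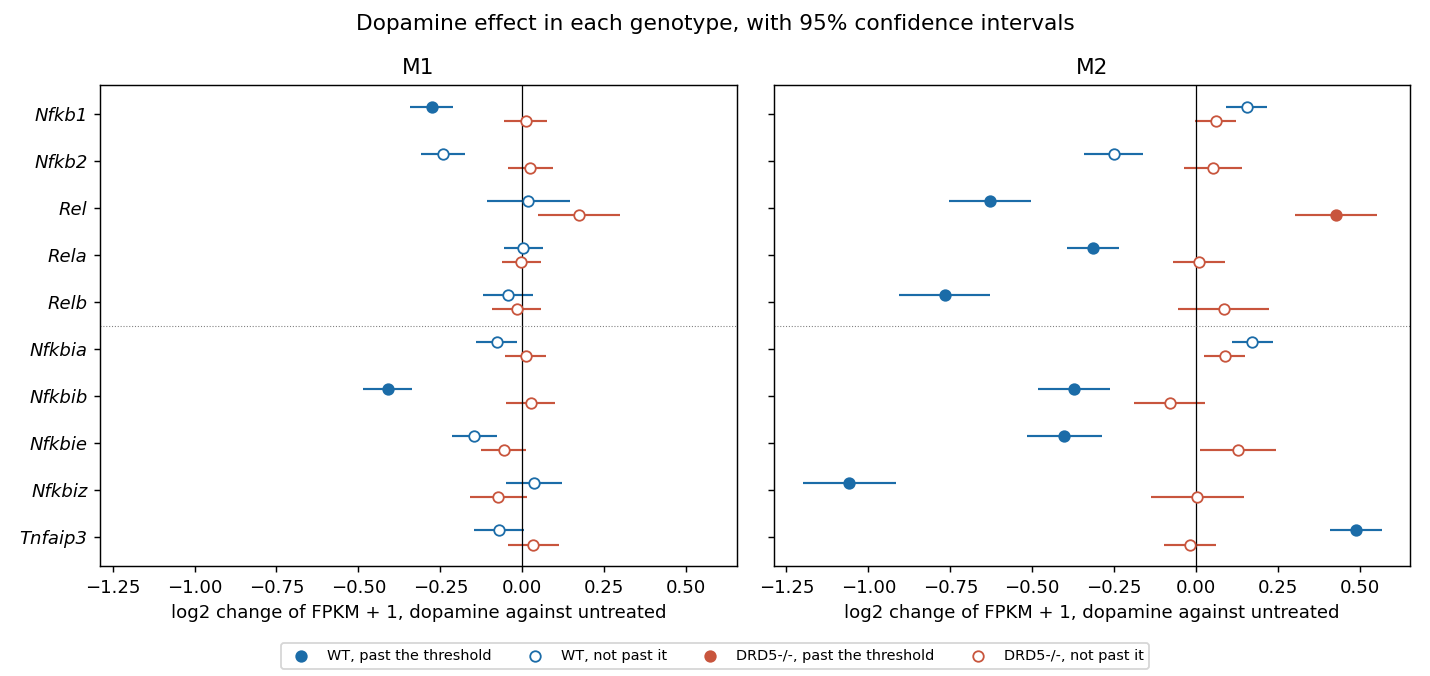
Log2 change with DA of each member in WT and DRD5-/- cells, M1 and M2, with 95% confidence intervals and filled points for changes past the threshold. In M1 WT the changes of Nfkb1 (−0.28, or −0.20 and short of the threshold with median-of-ratios scaling) and Nfkbib (−0.41) are filled, and in M2 WT those of 7 members, from Nfkbiz (−1.06) to Tnfaip3 (0.49).

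In M1 DRD5-/- cells no gene was past the threshold with DA. This was 0 of 10040 tested genes by limma (0%) and 0 of 10 members, while 569 genes and 1 member had an unadjusted p under 0.05. That member was Rel, with 6.83, 6.79 and 6.91 FPKM in untreated and 7.05, 8.09 and 8.47 FPKM in DA-treated libraries. Each treated library was above each untreated, by 0.17 log2 units (95% confidence interval 0.05 to 0.30, limma adjusted p = 0.851). Nfkb1 had 40.4, 38.8 and 39.8 FPKM in untreated and 40.3, 38.8 and 40.8 FPKM in DA-treated libraries. Nfkb2 had 43.9, 43.7 and 46.3 FPKM in untreated and 45.5, 44.6 and 46.1 FPKM in DA-treated libraries. Nfkbib had 77.4, 81.9 and 77.4 FPKM in untreated and 79.2, 83.6 and 78.1 FPKM in DA-treated libraries. For the 3 genes the groups overlapped. The members' median change was 0.010, against 0.001 for all tested genes.

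The effect of DA in M1 differed between the genotypes for 3 members. The difference, WT minus DRD5-/-, was −0.29 for Nfkb1 (SE 0.04, limma adjusted p = 0.000169), −0.27 for Nfkb2 (SE 0.04, limma adjusted p = 0.000471) and −0.44 for Nfkbib (SE 0.05, limma adjusted p = 1.37e-05). All 3 were in the lower direction and none in the higher, where 8.38% of all tested genes passed, 3.2% higher and 5.18% lower. The members' median was −0.098, against −0.068 for all tested genes. With the median-of-ratios scaling Nfkbib passed, and Nfkb1 (−0.21, limma adjusted p = 0.00171; 0.000169 to 0.00171 over all alternatives) and Nfkb2 (−0.19, limma adjusted p = 0.00562; 0.000321 to 0.00562 over all alternatives) did not. Nfkb2 also failed without any 1 of 9 libraries, with values from −0.28 to −0.25 and limma adjusted p from 0.00119 to 0.0019. These were untreated WT replicates 1, 2 and 3, DA-treated WT replicates 1 and 2, untreated DRD5-/- replicates 1 and 2, and DA-treated DRD5-/- replicates 1 and 3. Of all tested genes 321 differed in the higher and 520 in the lower direction (38.2% of those called higher), and with the scaling 460 and 261 (63.8%).

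The genotypes were compared in M1 without and with DA, and these comparisons share libraries with those above. Without DA, 0 of 10 members passed in DRD5-/- against WT, where 0.936% of all tested genes passed by limma. An unadjusted p under 0.05 was found for 2 members and for 2557 of 10040 tested genes. The 2 members were Rela and Relb. Rela had 64.9, 64.8 and 62.8 FPKM in WT and 73.7, 74.8 and 74.8 FPKM in DRD5-/- libraries, which do not overlap. The difference of 0.21 (ratio 1.16, SE 0.03, limma adjusted p = 0.000268) was short of 1.2-fold. Relb was higher in each DRD5-/- library as well, with 22.9, 21.9 and 22.6 against 24.4, 24.7 and 23.9 FPKM (log2 difference 0.11, limma adjusted p = 0.0624). With DA, 3 members were lower in WT than in DRD5-/- and none was higher, where 18.5% of all tested genes passed, 5.95% higher and 12.6% lower. They were Nfkb1 (log2 difference −0.27, SE 0.03, limma adjusted p = 4.16e-06), Nfkb2 (log2 difference −0.30, SE 0.03, limma adjusted p = 2.07e-06) and Nfkbib (log2 difference −0.47, SE 0.04, limma adjusted p = 5.84e-08), each lower in all 3 WT libraries. Rela (−0.20, limma adjusted p = 2.54e-05) and Nfkbia (−0.14, limma adjusted p = 0.000824) were also lower in each WT library, short of 1.2-fold. Relb (−0.14, limma adjusted p = 0.00497) and Nfkbie (−0.13, limma adjusted p = 0.00353) missed both cutoffs, though they too were lower in each WT library. Nfkbiz (0.06) was higher in each without passing. With the scaling Nfkb1 (−0.20) and Nfkb2 (−0.24) were short of 1.2-fold. Nfkb1 was so too without DA-treated WT replicate 1 (−0.26), DA-treated WT replicate 2 (−0.26) or DA-treated DRD5-/- replicate 3 (−0.25). The members' median difference was 0.039 without DA, against −0.013 for all tested genes, and −0.140 with DA, against −0.057. Of all tested genes 597 were higher and 1264 lower in WT with DA (32.1% of those called higher), and with the scaling 875 were higher and 792 lower (52.5%). The neutrophil markers were lower in both M1 DRD5-/- groups than in both WT groups, and their part in these differences was not tested.

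In M2 WT cells the subunits Rel, Rela and Relb fell with DA. Rel had 9.19, 9.27 and 8.78 FPKM in untreated and 5.70, 5.24 and 5.62 FPKM in DA-treated libraries. Rela had 57.2, 62.1 and 55.8 FPKM in untreated and 47.7, 45.9 and 46.6 FPKM in DA-treated libraries. Relb had 11.4, 10.5 and 9.60 FPKM in untreated and 5.40, 5.68 and 6.12 FPKM in DA-treated libraries. All treated libraries of the 3 genes were below the untreated, and Relb was at about 0.548 times its untreated mean. The log2 changes were −0.63 for Rel (SE 0.06, limma adjusted p = 2.17e-07), −0.31 for Rela (SE 0.04, limma adjusted p = 2.75e-06) and −0.77 for Relb (SE 0.06, limma adjusted p = 7.74e-08). Nfkb2 had 19.2, 18.9 and 19.5 FPKM in untreated and 14.8, 16.3 and 16.9 FPKM in DA-treated libraries, lower in all 3. Its change of −0.25 (ratio of mean FPKM 0.833, SE 0.04, limma adjusted p = 7.66e-05) was short of 1.2-fold on the log2(FPKM + 1) scale, though not as a ratio of mean FPKM, and it passed with a pseudocount of 0.1 (−0.26), with median-of-ratios scaling (−0.27), and without DA-treated WT replicate 2 (−0.27) or 3 (−0.29). Psd fell by 0.46 (limma adjusted p = 1.28e-05). Nfkb1 went the other way, with 39.8, 39.7 and 39.7 FPKM in untreated and 45, 44.7 and 43.4 FPKM in DA-treated libraries. Each treated library was higher, but the change of 0.15 (SE 0.03, limma adjusted p = 0.00023) was short of 1.2-fold. The whole set had 6 members lower and 1 higher, where 46.3% of 10735 tested genes passed, 25.9% higher and 20.4% lower. The members' median change was −0.344, against 0.031 for all tested genes.

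Among the inhibitors in M2 WT, Nfkbib, Nfkbie and Nfkbiz fell with DA and Tnfaip3 rose. Nfkbiz had 2.61, 2.60 and 2.53 FPKM in untreated and 0.670, 0.710 and 0.780 FPKM in DA-treated libraries. Tnfaip3 had 7.67, 7.70 and 8.01 FPKM in untreated and 11.5, 11.2 and 11.3 FPKM in DA-treated libraries. Nfkbiz was lower and Tnfaip3 higher in all 3 treated libraries. The change of Nfkbiz was −1.06, or −1.71 with a pseudocount of 0.1 (ratio 0.279, SE 0.07, limma adjusted p = 2.85e-09) and that of Tnfaip3 0.49 (ratio 1.45, SE 0.04, limma adjusted p = 2.2e-08). Nfkbib had 34.3, 33.0 and 32.3 FPKM in untreated and 26.7, 24.3 and 25.3 FPKM in DA-treated libraries. Nfkbie had 6.34, 6.59 and 6.00 FPKM in untreated and 4.39, 4.48 and 4.72 FPKM in DA-treated libraries. Neither gene overlapped between the groups, and the changes were −0.37 for Nfkbib (SE 0.05, limma adjusted p = 1.18e-05) and −0.40 for Nfkbie (SE 0.05, limma adjusted p = 9.88e-06). Sirt2, which shares exonic bases with Nfkbib, fell by 0.68 in M2 WT (limma adjusted p = 2.48e-11) and had a change of −0.02 in M1 WT (limma adjusted p = 0.6). Its part in the Nfkbib values was not tested. Nfkbia, the most abundant inhibitor in M1, had 31.3, 30.7 and 30.7 FPKM in untreated and 34.5, 34.8 and 35.6 FPKM in DA-treated M2 libraries. It was higher in each treated library, by 0.17 (SE 0.03, limma adjusted p = 9.67e-05), short of 1.2-fold. The sum of the macrophage markers, much of it Lyz2, was lower in the same DA-treated libraries. The mean of Lyz2 was 6799 FPKM in untreated and 4753 FPKM in DA-treated M2 WT cells. The part of these markers in the changes was not tested.

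In M2 DRD5-/- cells Rel was the 1 member that changed with DA, and it rose. It had 7.77, 7.71 and 6.74 FPKM in untreated and 9.82, 9.96 and 11.1 FPKM in DA-treated libraries, all 3 higher (log2 change 0.43, ratio 1.39, SE 0.06, limma adjusted p = 0.000124). This is 1 member higher and 0 lower, where 4.02% of all tested genes passed, 3.37% higher and 0.652% lower. By limma 3 members had an unadjusted p under 0.05, as had 4570 of 10735 tested genes. With the compared groups alone in the fit, the limma adjusted p of Rel was 0.00114, no longer under 0.001, and it ran from 0.000124 to 0.00114 over all alternatives. Nfkbiz had 2.38, 2.07 and 1.95 FPKM in untreated and 1.94, 2.19 and 2.29 FPKM in DA-treated libraries. Tnfaip3 had 8.36, 8.65 and 8.15 FPKM in untreated and 8.17, 8.38 and 8.25 FPKM in DA-treated libraries. Both genes overlapped between the groups, with log2 changes of 0.00 (95% confidence interval −0.14 to 0.15) and −0.02 (−0.10 to 0.06). Relb had 10.2, 10.6 and 10.5 FPKM in untreated and 10.2, 11.1 and 12.2 FPKM in DA-treated libraries, and Rela had 56.4, 58.8 and 58.5 and 58.9, 56.5 and 59.3 FPKM. These overlapped as well. The other 2 members with an unadjusted p under 0.05 were Nfkbia, higher in each treated library (0.09, limma adjusted p = 0.0332), and Nfkbie (0.13, limma adjusted p = 0.0845), and Nfkb2 (0.05) was also higher in each. The members' median change was 0.055, against 0.007 for all tested genes. Of all tested genes 362 rose and 70 fell (83.8% of those called higher), and with the median-of-ratios scaling 292 rose and 127 fell (69.7%).

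The effect of DA in M2 differed between the genotypes for 7 members, 6 in the lower direction and 1 in the higher, where 43.2% of all tested genes passed, 22.8% higher and 20.4% lower. Among the subunits the difference, WT minus DRD5-/-, was −1.06 for Rel (SE 0.08, limma adjusted p = 5.39e-08), which fell in WT and rose in DRD5-/-. It was −0.85 for Relb (SE 0.09, limma adjusted p = 1.51e-06), −0.32 for Rela (SE 0.05, limma adjusted p = 8.29e-05) and −0.30 for Nfkb2 (SE 0.06, limma adjusted p = 0.000393). Among the inhibitors it was −1.06 for Nfkbiz, or −1.72 with a pseudocount of 0.1 (SE 0.09, limma adjusted p = 1.91e-07), −0.53 for Nfkbie (SE 0.08, limma adjusted p = 2.59e-05) and 0.51 for Tnfaip3 (SE 0.05, limma adjusted p = 9.27e-07). Nfkbib, which fell with DA in WT, had a difference of −0.29 that was not past the threshold (SE 0.07, limma adjusted p = 0.00232). Nfkb1 (0.09) and Nfkbia (0.08) were not past it either. The call on Nfkb2 was lost without a filter on low FPKM (limma adjusted p = 0.001; 0.000152 to 0.00141 over all alternatives). It was also lost without WT replicate 1 (−0.30), WT replicate 3 (−0.29), DA-treated WT replicate 1 (−0.25), DRD5-/- replicate 1 (−0.29), DA-treated DRD5-/- replicate 1 (−0.30) or DA-treated DRD5-/- replicate 3 (−0.30), with limma adjusted p from 0.000422 to 0.00141. The members' median was −0.313, against 0.012 for all tested genes.

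Untreated M2 cells of the genotypes differed in no member by the threshold: 0 of 10 passed by limma, where 5.51% of all tested genes did. An unadjusted p under 0.05 was found for 6 members and for 4021 of 10735 tested genes. Rel had 9.19, 9.27 and 8.78 FPKM in WT and 7.77, 7.71 and 6.74 FPKM in DRD5-/- libraries (log2 difference −0.26, limma adjusted p = 0.00429). Nfkbie had 6.34, 6.59 and 6.00 FPKM in WT and 5.12, 5.32 and 4.85 FPKM in DRD5-/- libraries (log2 difference −0.26, limma adjusted p = 0.00255). Each DRD5-/- library was below each WT library for both genes, and likewise for Nfkb1 (−0.14), Nfkb2 (−0.15) and Nfkbiz (−0.19), while Tnfaip3 was higher (0.09). The members' median difference was −0.115, against −0.033 for all tested genes. Of all tested genes 147 were higher and 445 lower in DRD5-/- (24.8% of those called higher), and with the median-of-ratios scaling 226 were higher and 336 lower (40.2%). The fibroblast markers were lower in the M2 DRD5-/- libraries, and their part in these differences was not tested.

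With DA, M2 WT and M2 DRD5-/- cells differed in 6 members, 5 lower and 1 higher in WT, where 49.7% of all tested genes passed, 29.2% higher and 20.4% lower. This comparison shares its WT libraries with the effect of DA in WT. The WT values were lower in all 3 libraries for Relb (−0.85), Nfkbiz (−0.87, or −1.45 with a pseudocount of 0.1), Rel (−0.79), Rela (−0.31) and Nfkbie (−0.27) and higher for Tnfaip3 (0.41). The ratio of mean FPKM was 0.336 for Nfkbiz, 0.514 for Relb and 0.536 for Rel. The limma adjusted p was at most 2.76e-06 for all of them except Nfkbie, which had 0.000392. The call on Nfkbie was lost without a filter (limma adjusted p = 0.00132), with a replicate block (0.00111) and with the compared groups alone (0.00141), against a range of 0.000119 to 0.00262 over all alternatives. It was also lost without DA-treated WT replicate 1 (−0.25), DA-treated WT replicate 2 (−0.26), DA-treated DRD5-/- replicate 1 (−0.24) or DA-treated DRD5-/- replicate 3 (−0.25). Nfkb1 was higher in each WT library, with 45, 44.7 and 43.4 FPKM against 36.4, 37.8 and 38.6, but the difference of 0.23 was short of 1.2-fold. The members' median difference was −0.234, against 0.055 for all tested genes.

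The effect of DA in WT differed between M1 and M2 for 6 members, 4 with a higher and 2 with a lower value in M1, where 45.9% of 11148 tested genes passed, 17.6% higher and 28.2% lower. Of those that passed 38.4% were higher, and 46.7% with median-of-ratios scaling. Nfkbiz had the largest difference, M1 minus M2 (log2 difference 1.09, SE 0.07, limma adjusted p = 7.49e-12), from a change of 0.04 in M1 and −1.06 in M2, and it was 1.75 with a pseudocount of 0.1. Relb (log2 difference 0.72, SE 0.08, limma adjusted p = 1.7e-08), Rel (log2 difference 0.65, SE 0.08, limma adjusted p = 5.14e-07) and Rela (log2 difference 0.32, SE 0.05, limma adjusted p = 2.24e-06) likewise fell in M2 and were not past the threshold in M1. Tnfaip3 (log2 difference −0.56, SE 0.05, limma adjusted p = 5.78e-10) rose in M2 alone by the threshold, and Nfkb1 (log2 difference −0.43, SE 0.04, limma adjusted p = 1.6e-09) fell in M1 and was higher without passing in M2. Nfkbib fell under both stimuli, by 0.41 and 0.37, and the difference was −0.04 (95% confidence interval −0.17 to 0.10, limma adjusted p = 0.614). Nfkb2 had a difference of 0.01 (95% confidence interval −0.10 to 0.12). Nfkbie, at 0.26 short of the threshold, passed with a pseudocount of 0.1 (0.32), with median-of-ratios scaling (0.32), and without M1 WT replicate 2 (0.27), M1 DA-treated WT replicate 2 (0.28), M2 WT replicate 3 (0.29) or M2 DA-treated WT replicate 3 (0.28). Nfkbia, at −0.25, passed without M1 WT replicate 3 (−0.28). The members' median was 0.133, against −0.083 for all tested genes. The stimulus and the set of files cannot be told apart here either.

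Set in order over the 8 groups by mean FPKM, the subunits followed different patterns. Nfkb1 was highest in DA-treated M2 WT cells (44.3 ± 0.854 FPKM, SD, n = 3), then level in untreated M1 WT, DA-treated M1 DRD5-/-, untreated M2 WT and untreated M1 DRD5-/- cells, whose neighbours overlap. It was lower in both M2 DRD5-/- groups, which overlap, and lowest in DA-treated M1 WT cells (33.0 ± 0.712 FPKM, SD, n = 3). Nfkb2 was highest in both M1 DRD5-/- groups and untreated M1 WT, which overlap in that order, then in DA-treated M1 WT, and all M2 groups lay below, with DA-treated WT last (16.0 ± 1.09 FPKM, SD, n = 3) and overlapping untreated M2 DRD5-/-. Rel began with DA-treated M2 DRD5-/- (10.3 ± 0.719 FPKM, SD, n = 3) and untreated M2 WT (9.08 ± 0.263 FPKM, SD, n = 3), and ended with DA-treated M2 WT (5.52 ± 0.246 FPKM, SD, n = 3). Between them stood DA-treated M1 DRD5-/-, DA-treated M1 WT, untreated M2 DRD5-/- and untreated M1 WT, each overlapping the next, and untreated M1 DRD5-/-. Rela ran from both M1 DRD5-/- groups, which overlap, through both M1 WT groups, which overlap, to untreated M2 WT and both M2 DRD5-/- groups, which overlap, and DA-treated M2 WT cells. Relb had the same order of M1 genotypes, then DA-treated DRD5-/-, untreated WT and untreated DRD5-/- M2 cells, which overlap, and DA-treated M2 WT cells at 5.73 ± 0.363 FPKM (SD, n = 3).

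The inhibitors had all M1 groups above all M2 groups. For Nfkbia the M1 groups ran from DA-treated DRD5-/- (257 ± 5.40 FPKM, SD, n = 3) to DA-treated WT (232 ± 4.47 FPKM, SD, n = 3), with an overlap within each genotype. Its M2 groups ran from DA-treated WT (34.9 ± 0.573 FPKM, SD, n = 3) through DA-treated DRD5-/- to both untreated groups, which overlap. Nfkbib was level in the other M1 groups and lower in DA-treated M1 WT, and in M2 untreated WT and both DRD5-/- groups overlapped in order, with DA-treated WT lowest (25.4 ± 1.24 FPKM, SD, n = 3). For Nfkbie the M1 groups other than DA-treated WT overlapped in order, and DA-treated WT lay below them. Its M2 groups ran from untreated WT (6.31 ± 0.296 FPKM, SD, n = 3) through both DRD5-/- groups, which overlap, to DA-treated WT (4.53 ± 0.171 FPKM, SD, n = 3). Nfkbiz overlapped from each M1 group to the next, between 16.9 and 19.1 FPKM in all 12 libraries, and in M2 ran from untreated WT through both DRD5-/- groups, which overlap, to DA-treated WT (0.720 ± 0.0557 FPKM, SD, n = 3). Tnfaip3 lay between 78.9 and 88.1 FPKM in M1, where groups next to each other in order overlap but the first, untreated WT, and the last, DA-treated WT, do not. In M2 it was highest in DA-treated WT (11.3 ± 0.127 FPKM, SD, n = 3), with both DRD5-/- groups overlapping and untreated WT lowest (7.79 ± 0.188 FPKM, SD, n = 3).

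The balance of the members was followed as the FPKM of each over that of Rela in the same library, which is a ratio per transcript length. Nfkbia had a median ratio to Rela of 3.86 in untreated M1 WT and 0.547 in untreated M2 WT cells. Nfkbib was above Rela in untreated M1 WT (1.19) and below it in DA-treated M1 WT cells (0.896), while it stood at 1.049 and 1.077 in the M1 DRD5-/- groups. Nfkb1 reached 0.944 of Rela in DA-treated M2 WT, against 0.696 in untreated M2 WT cells. Such a ratio moves with Rela too. Its mean was 64.2 FPKM in untreated M1 WT and 74.4 FPKM in untreated M1 DRD5-/- cells, where Nfkbib had 76.8 and 78.9 FPKM. In M2 WT the mean of Rela was 58.4 FPKM without and 46.7 FPKM with DA, and that of Nfkb1 39.7 and 44.3 FPKM. Of the summed FPKM of the 5 subunits, Rela made up a median of 36.2% in untreated M1 WT and 41.8% in untreated M2 WT cells. Nfkb1 made up 22.6% in untreated M1 WT and 20.3% in DA-treated M1 WT cells, and 29.1% in untreated M2 WT and 37.9% in DA-treated M2 WT cells. Relb made up 7.44% in untreated M2 WT and 4.82% in DA-treated M2 WT cells. The summed FPKM of Nfkbia, Nfkbib and Nfkbie over that of the 5 subunits had a median of 2.15 in untreated M1 WT (2.06 to 2.15) and 2.07 in DA-treated M1 WT (2.06 to 2.10), which overlap. In M2 WT it was 0.517 (0.5 to 0.526) without and 0.553 (0.539 to 0.553) with DA, with no overlap, and in M2 DRD5-/- 0.516 (0.502 to 0.527) without and 0.494 (0.492 to 0.505) with DA, which overlap. Both sums were lower with DA in M2 WT. That of the inhibitors was 68.97 to 71.89 FPKM without and 63.48 to 65.58 FPKM with DA. That of the subunits was 133.4 to 140.4 FPKM without and 117.8 to 118.6 FPKM with DA. No test was made on these ratios or sums.

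**Figure D5:**
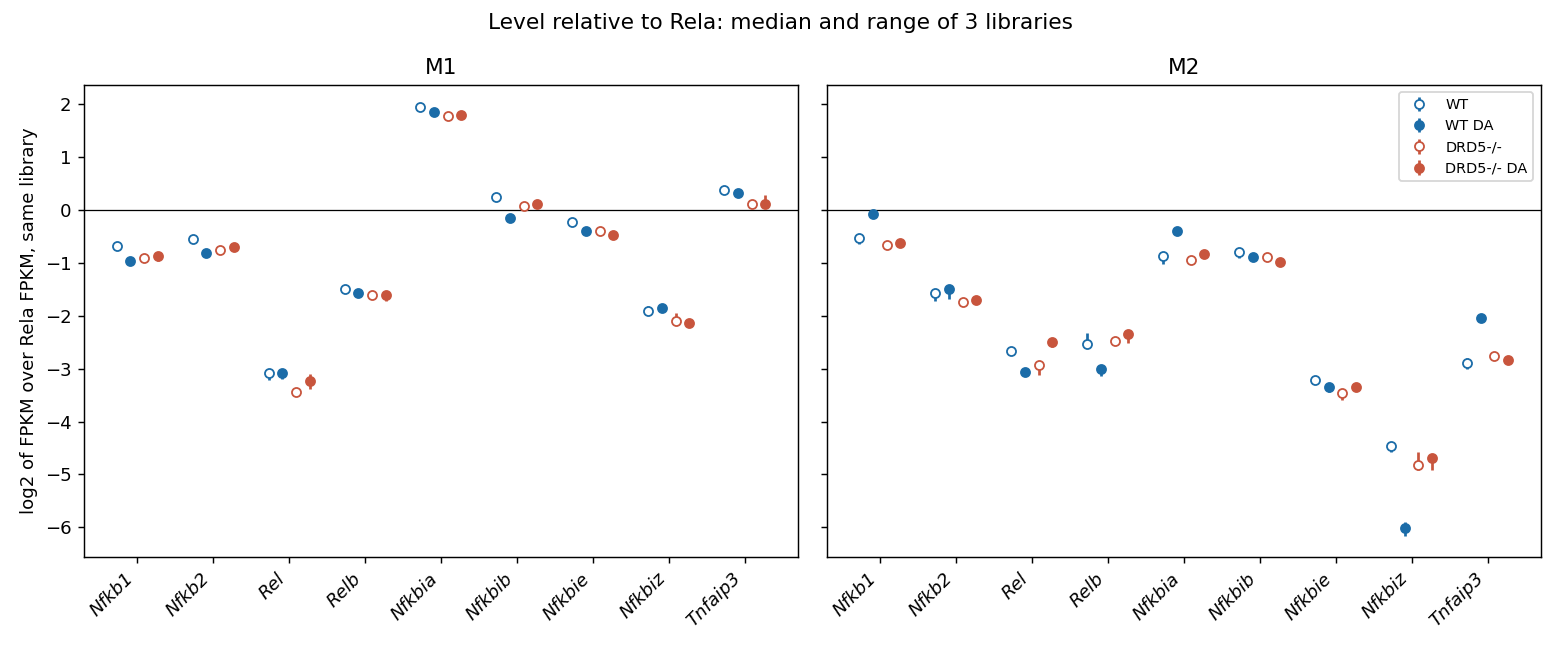
Log2 of the FPKM of each member over that of Rela in the same library, as the median and range of 3 libraries in each of the 8 groups. Nfkbia stands above Rela (0) in every M1 group and below it in every M2 group, and Nfkbiz is lowest in DA-treated M2 WT cells, at −6.01.

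The other genes of the pathway were followed in 5 lists: other IκB and related genes (4 genes), the IKK complex and its kinases (13), receptor adaptors (16), other negative regulators (15) and NF-kB target genes (28). The first list is called other IκB genes below, with Nkrf counted in it as a related gene. With DA in M1 WT cells the counts stand beside 4.73% of all tested genes higher and 9.6% lower. None of the 3 tested other IκB genes rose and 1 fell, Bcl3 (log2 change −0.37, SE 0.03, limma adjusted p = 9.97e-07), a nuclear IκB. Of the 13 IKK genes 1 rose and 0 fell. This was Ikbkg (log2 change 0.46, SE 0.04, limma adjusted p = 4.64e-07), which encodes the regulatory subunit NEMO. Of the 16 adaptors 0 rose and 2 fell, Traf6 (log2 change −0.35, SE 0.04, limma adjusted p = 9.12e-06) and Ticam2 (log2 change −0.26, SE 0.04, limma adjusted p = 6.85e-05), which relay signals of Toll-like receptors. The call on Ticam2 was lost with median-of-ratios scaling (−0.19) and without WT replicate 1 (−0.25), WT replicate 2 (−0.26), DA-treated WT replicate 2 (−0.24) or DA-treated WT replicate 3 (−0.25). Of the 15 negative regulators 0 rose and 1 fell, Tnip3 (−0.37), an A20-binding protein gene. Of 27 tested target genes 4 rose and 8 fell, or 5 and 8 with the scaling, where 677 of 10029 tested genes rose and 539 fell. Il12b, a cytokine subunit gene, fell by 1.94 (ratio 0.225), Cd83 by 1.04 and the survival gene Bcl2a1b by 0.99, and Plau, the urokinase gene, rose by 1.28 (ratio 2.6). Il12b had 19.9, 20.3 and 20.03 FPKM in untreated and 4.55, 4.28 and 4.69 FPKM in DA-treated libraries, lower in all 3. The median changes of the lists, in the order above, were −0.177, −0.038, −0.058, −0.090 and −0.147, against −0.067 for all tested genes. With the scaling they were −0.111, 0.027, 0.013, −0.021 and −0.029, so that those of the IKK genes and adaptors turned positive. Without DA-treated WT replicate 2, 1 IKK gene fell, and without DA-treated WT replicate 1, 1 negative regulator rose. Nkrf and Csf2 were measured in M1 but too low to be tested.

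In M1 DRD5-/- cells 0 genes of the 5 lists passed with DA by limma, and 0, 1, 1, 3 and 0 had an unadjusted p under 0.05. Of 10040 tested genes 0 passed and 569 had an unadjusted p under 0.05. Between the genotypes, the effect of DA in M1 differed for 0 higher and 1 lower of the other IκB genes, 1 and 0 of the IKK genes, 0 and 1 of the adaptors, 0 and 1 of the negative regulators, and 5 and 7 of the target genes, beside 3.2% of all tested genes higher and 5.18% lower. The difference was −1.94 for Il12b and 1.25 for Plau (limma adjusted p = 5.55e-12 and 2.98e-08). It was −0.34 for Bcl3 and −0.31 for Tnip3, and with median-of-ratios scaling both were lost (−0.27 and −0.23). Without a filter on low FPKM the target genes had 4 higher and 4 lower, and with the scaling 5 and 5, and without DA-treated WT replicate 1 the adaptors had 2 in place of 1. Of all tested genes 234 were higher and 348 lower without the filter, and 460 and 261 with the scaling. The median differences of the lists were −0.202, −0.070, −0.058, −0.012 and −0.137, against −0.068 for all tested genes, and with the scaling all but that of the other IκB genes turned positive (0.005, 0.013, 0.063 and 0.003). Without DA, Bcl3 was the 1 gene of the lists that differed between M1 DRD5-/- and WT cells (log2 difference 0.30, SE 0.03, limma adjusted p = 0.000136), where 0.936% of all tested genes passed. The call on Bcl3 was lost without DRD5-/- replicate 2 (0.29, limma adjusted p = 0.00119). The other 4 lists had 0 genes past the threshold by limma, and 7, 5, 6 and 12 with an unadjusted p under 0.05. Of 10040 tested genes 2557 had such a p in this comparison.

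With DA in M2 WT cells the counts of the lists stand beside 25.9% of all tested genes higher and 20.4% lower. Of the 4 genes in the other IκB list 2 rose and 1 fell: Nfkbid (0.55) and the related gene Nkrf (0.45) rose and Bcl3 (−0.996) fell. Of 13 IKK genes 3 rose and 5 fell, with Ikbkg at 1.03, Ripk2 at 0.63, Map3k8 at −0.94 and Ikbke at −0.42. Of the 16 receptor adaptors 0 rose and 9 fell. Traf1 had a change of −1.10 (ratio 0.346), Ticam2 of −0.96, Birc3 of −0.94 and Ticam1 of −0.67, and the limma adjusted p of each was at most 3.03e-08. Of 15 negative regulators 4 rose and 5 fell, or 2 and 5 with median-of-ratios scaling, where 2609 of 10727 tested genes rose and 2351 fell. Pdlim2 rose by 0.83, and Tnip1 fell by 0.79, Itch by 0.48 and Tnip3 by 0.43. Without untreated WT replicate 1 the number that rose was 1, and without DA-treated WT replicate 2 it was 2. Of 21 tested target genes 9 rose and 8 fell. The cyclin gene Ccnd1 rose by 3.45 (ratio 11.4), Plau by 3.33 (ratio 10.6) and the chemokine gene Ccl2 by 2.39 (ratio 5.28), and Cd83 fell by 2.80 (ratio 0.136). The median changes of the lists were 0.222, −0.101, −0.293, −0.110 and 0.219, against 0.031 for all tested genes. With no filter, over all 28 target genes, the median of these turned to −0.037, with 9 higher and 10 lower. Of 17766 genes tested without the filter 2692 were higher and 2144 lower. Csf2, Cxcl10, Cxcl2, Il12b, Il1a, Il6 and Nos2 were measured in M2 but too low to be tested.

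In M2 DRD5-/- cells DA changed Ikbkg, which rose (0.82), and 3 target genes, which fell: Plau (−0.61), Bcl2a1b (−0.30) and Cd83 (−0.27). This is beside 3.37% of all tested genes that rose and 0.652% that fell. The call on Cd83 was lost without a filter, with a replicate block, and without DRD5-/- replicate 1 (−0.26), 2 (−0.26) or 3 (−0.28) or DA-treated DRD5-/- replicate 1 (−0.25) or 3 (−0.24). The other 3 lists had 0 genes past the threshold by limma, and 1, 9 and 8 with an unadjusted p under 0.05, beside 4570 of 10735 tested genes. Between the genotypes, the effect of DA in M2 differed for 1 higher and 1 lower of the other IκB genes, 1 and 6 of the IKK genes, 0 and 9 of the adaptors, 3 and 6 of the negative regulators, and 10 and 9 of the target genes, beside 22.8% of all tested genes higher and 20.4% lower. Without DA-treated WT replicate 3 the other IκB genes had 2 higher in place of 1. Plau had a difference of 3.94 and Birc3 of −1.14 (limma adjusted p = 1.46e-14 and 1.27e-09). The median differences of the lists were 0.245, −0.381, −0.411, −0.102 and 0.103, against 0.012 for all tested genes, and with no filter that of the target genes turned to −0.041. Without DA, M2 DRD5-/- cells were lower than WT in 2 adaptors, Traf1 (−0.61) and Birc3 (−0.27), and 2 negative regulators, Tnip3 (−0.49) and Pdlim2 (−0.42), and 5 target genes were higher and 1 lower (2 with the compared groups alone), among them Bcl2a1b (0.71), Plau (0.71) and Ptgs2 (−0.62), where 5.51% of all tested genes passed. The call on Birc3 was lost without a filter, with median-of-ratios scaling (−0.22), with a replicate block, with the compared groups alone, and without WT replicate 1 (−0.29), 2 (−0.29) or 3 (−0.23) or DRD5-/- replicate 1 (−0.27) or 3 (−0.24). The other IκB and IKK lists had 0 genes past the threshold by limma, and 1 and 7 with an unadjusted p under 0.05, beside 4021 of 10735 tested genes.

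Ikbkg was the 1 gene of the IKK list that rose with DA in WT under both stimuli and in M2 DRD5-/- cells. In M1 it had 7.99, 7.68 and 7.97 FPKM in untreated WT, 11.4, 11.2 and 11.1 in DA-treated WT, 7.37, 7.07 and 7.12 in untreated DRD5-/- and 7.22, 7.26 and 7.61 in DA-treated DRD5-/- libraries. In M2 it had 6.50, 6.65 and 6.87 FPKM in untreated WT, 14.5, 15.1 and 14.5 in DA-treated WT, 6.20, 6.29 and 6.42 in untreated DRD5-/- and 12.1, 11.5 and 12.1 in DA-treated DRD5-/- libraries. DA-treated WT libraries were the highest under each stimulus, and M2 DRD5-/- libraries with DA stood above those without. The genotypes differed in the effect of DA in M1 (0.43, SE 0.06, limma adjusted p = 6.53e-05) and not by the threshold in M2 (0.21, SE 0.05, limma adjusted p = 0.00289). Ikbkg (gene 16151, chrX:74393290-74453854, plus strand) shares 418 of its 8110 exonic bases with G6pdx on the other strand. G6pdx had 112, 105 and 108 FPKM in untreated and 144, 143 and 148 FPKM in DA-treated M2 DRD5-/- libraries, where it rose by 0.41 (limma adjusted p = 4.93e-07). It had changes of −0.19 in M2 WT and 0.07 in M1 WT, neither past the threshold. The part of G6pdx reads in the values of Ikbkg was not tested.

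In untreated WT cells the target genes were higher in M1 than in M2 for 20 of 27 tested and lower for 4, with a median log2 difference of 3.190, against −0.387 for all tested genes, of which 22.6% were higher and 54.9% lower. Nos2 (10.51), Cxcl10 (10.09), Ccl5 (8.03) and Ptgs2 (6.97) led the list. Of the 16 adaptors 12 were higher and 3 lower, with Traf1 (3.92) highest and Irak1 (−1.46) among the lower, at a median of 0.659. Of the 13 IKK genes 5 were higher and 2 lower (median 0.211), of the 15 negative regulators 6 and 6 (median 0.158), and of the 4 other IκB genes 1 and 1 (median −0.031, or 0.370 with median-of-ratios scaling). With median-of-ratios scaling the counts, higher and lower, were 22 and 3 of the target genes, 13 and 2 of the adaptors, 11 and 0 of the IKK genes, 8 and 1 of the negative regulators and 2 and 1 of the other IκB genes. These stand beside 4088 higher and 4038 lower of 11077 tested genes with the same scaling. Between M1 and M2 the effect of DA in WT differed for 7 target genes with a higher and 13 with a lower value in M1, beside 17.6% of all tested genes higher and 28.2% lower. Ccnd1 was at −3.04 and Cxcl1 at 2.50. All 7 adaptors that differed had the higher value in M1, among them Traf1 (1.13) and Birc3 (0.83), and 0 had the lower.

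The genes whose pattern over 12 libraries was most like that of the member with the largest genotype difference in the effect of DA were found for each stimulus by Pearson's r of log2(FPKM + 1), as a description with no test, since the libraries fall into treated and untreated groups. For Nfkbib in M1 they were Irf8 (r = 0.988), Tgfb3 (r = 0.988) and Got1 (r = 0.987) of 10040 genes. Irf8, a macrophage transcription factor gene, had means of 368 FPKM in untreated WT, 275 in DA-treated WT, 388 in untreated DRD5-/- and 386 in DA-treated DRD5-/- cells. Among the members Nfkb2 (r = 0.952) and Nfkb1 (r = 0.938) came nearest to Nfkbib. For Nfkbiz in M2 they were Rnf185 (r = 0.994), Rab11fip5 (r = 0.992) and Ciita (r = 0.991) of 10735 genes. Ciita, the class II transactivator gene, had means of 8.79 FPKM in untreated WT, 0.913 in DA-treated WT, 5.67 in untreated DRD5-/- and 6.01 in DA-treated DRD5-/- cells. Among the members Relb (r = 0.952) was nearest to Nfkbiz, and Tnfaip3 (r = −0.982) ran opposite to it.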

How the data were processed

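The FPKM were used as the authors deposited them. The submitters' notes name Bowtie2 2.2.5 and GRCm38.p6, while the methods of the paper name HISAT2 and GRCm38.p5. The members and lists were chosen with earlier results of these data known. The genes named are all members, the dopamine receptor genes, from each list up to 4 with the largest change past the threshold, and the 3 most like the member whose DA effect differed most between genotypes, and the promoter windows printed in full are those of Nfkbia and of members that changed with DA in WT under both stimuli. Ikbkg and the genes that share bases with a member were taken up after their values were seen. Genes with an FPKM of 1 or more in at least 3 libraries entered limma 3.58.1, run in R 4.3.3 with an intensity trend and group means on log2(FPKM + 1), 10040 genes in M1, 10735 in M2 and 11148 in the fit of both. Other steps used Python 3.11.15, numpy 2.4.6, pandas 2.3.3 and matplotlib 3.10.9. The alternatives were a pseudocount of 0.1, no filter, median-of-ratios scaling, a replicate block, an adjusted p under 0.05 with no fold, the compared groups alone, each library left out in turn and, for ratios to Rela, FPKM + 1. Those for the pathway lists were chosen after seeing the data.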

Additional observations from a re-analysis of the deposited data

Results flagged for a closer look

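The effect of DA differed between WT and DRD5-/- cells, by limma's test of that difference, for 3 members in M1: Nfkb1 (−0.29), Nfkb2 (−0.27) and Nfkbib (−0.44), where 8.38% of all tested genes passed. Nfkb1 and Nfkb2 were lost with median-of-ratios scaling, and Nfkb2 also in 9 of 12 fits that left out 1 library. In M2 the effect of DA differed for 7: Nfkb2 (−0.30), Rel (−1.06), Rela (−0.32), Relb (−0.85), Nfkbie (−0.53), Nfkbiz (−1.06) and Tnfaip3 (0.51), where 43.2% of all tested genes passed. Nfkb2 was lost there without a filter and in 6 of 12 fits that left out 1 library. The effect of DA in WT cells differed between M1 and M2, M1 minus M2, for 6: Nfkb1 (−0.43), Rel (0.65), Rela (0.32), Relb (0.72), Nfkbiz (1.09) and Tnfaip3 (−0.56), where 45.9% of all tested genes passed. Groups of 3 libraries were not searched for single libraries that stand apart.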

How the results depend on the processing

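The changes of the members were recomputed under the alternatives, 1690 values in all, with the compared groups alone run for the 4 comparisons of a pair of groups within each stimulus and not for the differences of effects or between M1 and M2: 1613 kept their side of the threshold, 35 lost it, 40 gained it and 2 reversed. Among changes past no threshold 41 values changed sign. Both reversed with median-of-ratios scaling: Rel between M1 and M2 turned to 0.13 in WT and to 0.27 in DRD5-/-. Of the pathway genes compared in this way, up to 4 of the largest changes past the threshold per list and comparison, Nfkbid reversed, to 0.0541 between M1 and M2 in DRD5-/-. With that scaling the number of members past the threshold was 1 for DA in M1 WT, 1 for the genotype difference of that effect and 1 between DA-treated M1 genotypes. Of 10029 tested genes 1216, 721 and 1667 passed, in the same order. The scaling also added members. Nfkb2 was added for DA in M2 WT (4960 of 10727 tested genes passed). Nfkbie was added for the difference of the DA effect in WT between M1 and M2 (4928 of 11077). Between M1 and M2 it added Nfkb1 and Rela in WT (8126 of 11077) and Nfkb1 in DRD5-/- (8156 of 11077). At an adjusted p under 0.05 with no fold, which is less strict by construction, the number of members was 5 for DA in M1 WT, 1 between untreated and 7 between DA-treated M1 genotypes, 2 for DA in M2 DRD5-/-, 5 between untreated and 10 between DA-treated M2 genotypes. In the same order 4574, 987 and 5081 of 10040 tested genes passed in M1, and 3453, 2856 and 8273 of 10735 in M2. This cutoff also added Nfkb1, Nfkb2 and Nfkbia for DA in M2 WT (7969 of 10735) and Nfkbib for its genotype difference (7357 of 10735). Nfkbia and Nfkbie were added for the stimulus difference (7631 of 11148). Between M1 and M2 it added Rela in WT (10079 of 11148) and Nfkb1 in DRD5-/- (10046 of 11148). With the compared groups alone, where the filter was applied to those libraries too, the number of members was 0 for DA in M2 DRD5-/-, where 311 of 10448 tested genes passed. Except for the less strict threshold, the cause was not tested. Leaving out each library gave 2 to 3 for the genotype difference and between DA-treated genotypes in M1, 7 to 8 for DA in M2 WT, 6 to 7 for its genotype difference, 5 to 6 between DA-treated M2 genotypes, 7 to 8 between M1 and M2 in WT and 6 to 7 for the stimulus difference. With all libraries kept, 8.38%, 18.5%, 46.3%, 43.2%, 49.7%, 77.5% and 45.9% of all tested genes passed in these comparisons, in the same order. The replicate block gave 2, 0, 3, 0 and 3 members in M1 and 7, 1, 7, 0 and 5 in M2. The order is DA in WT, DA in DRD5-/-, their difference, untreated genotypes and DA-treated genotypes. Of all tested genes 1359, 0, 716, 74 and 1769 of 10040 passed with the block in M1. In M2 they were 4906, 373, 4462, 534 and 5264 of 10735. Libraries of the same number in different groups were not more alike than others (mean residual r −0.021 over 18 pairs in M1 and −0.016 over 18 in M2), so the fit has no pairing. Of 72 ratios to Rela, 32 moved with FPKM + 1, by up to 1.24 log2 units, and 0 reversed. With no counts, the depth behind the low values of Nfkbiz in M2 is unknown.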
